A study of Mus musculus with 24 samples.

Results

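The genes described here encode the proteins of the cytosolic ribosome. They were taken as every gene whose symbol in the array's annotation is Rpl or Rps followed by a number and at most 1 letter out of a, x, y and l, together with Rplp0, Rplp1 and Rplp2. Rps27l was left out. The rule gave 57 of the 19057 named genes on the array, 35 of the large and 22 of the small ribosomal subunit, measured by 85 probes. The 19 genes with more than 1 probe were represented by the probe of highest mean signal. Rpl5, Rpl11, Rpl10, Rps27a and Rpl10l are not named by the annotation and were not analysed here.

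A ribosome is built from ribosomal RNA and one copy of most of these proteins, so that cells make them in matched amounts. The small subunit reads the messenger RNA and the large subunit joins the amino acids. Ribosomal protein mRNAs are abundant and short, and most begin with a run of pyrimidines through which mTOR signalling sets their translation. Heterozygous loss of several of the genes causes Diamond-Blackfan anaemia in humans. Neurons also carry ribosomes and ribosomal protein mRNAs into their axons, where proteins are made locally.

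The study profiled FVB mice at postnatal day 4. Its 24 arrays form 8 groups of 3 biological replicates, with SMA and wild-type (WT) mice for each of 4 tissues. These were 2 columns of the spinal cord, the medial (MMC) and lateral (LMC) motor columns, and also dorsal root ganglion (DRG) and raphe. SMA is taken to stand for spinal muscular atrophy, in which motor neurons degenerate for want of survival motor neuron protein. The sources used here do not give which allele or transgene these mice carry, or how cells or tissue were collected. The RNA kit was one meant for very small inputs, and amplified cDNA was labelled. All 6 arrays of a tissue lay on 1 chip, with the WT arrays in the first positions and the SMA arrays in the last. Tissue and chip therefore cannot be told apart, and neither can genotype and position on the chip.

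Levels are given as normalized log2 intensities, on which 1 unit is a factor of 2. The brightness of a probe depends on its sequence, so levels are compared between arrays and not between genes. The share of probes above background (detection p under 0.05) ran from 33.7 to 49.7% over the arrays. Smn1, which encodes the survival motor neuron protein, was above background on all 3 arrays of every WT group and on 0 of 3 in every SMA group, with group means of 9.76 to 10.1 against 4.50 to 4.78; whether its probe lies in the altered part of the gene is not given. The samples were not pure motor neurons. The summed signal of 6 measured oligodendrocyte markers lay between 5949 and 12665 on the MMC arrays and between 730 and 2352 on the LMC arrays. The summed signal of 8 motor neuron markers lay between 3551 and 7405 on the motor column arrays and between 4295 and 8581 on the DRG arrays, where Lhx4, Mnx1, Slc18a3 and Slc5a7 were not above background. In the raphe it lay between 126 and 347, and the 4 measured serotonergic markers were all above background there. Fewer cells of a type and less RNA per cell cannot be told apart in such samples.

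Of the 57 genes, 44 were above background on all 24 arrays and 9 on 20 to 23. The other 4 were Rps4l on 5 arrays, Rpl3l on 6, Rpl6 on 2 and Rpl39l on 1. Rpl3l is a copy of Rpl3 used mainly in striated muscle, and Rpl39l is a copy of Rpl39 used in the testis. A gene was tested where it was above background on all 3 arrays of at least 1 group compared, which Rpl3l, Rpl6 and Rpl39l never were. This left 54 genes, and 51 to 54 in any 1 tissue.

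RefSeq promoters of the assembly GRCm38.p6 were matched by symbol to 46 of the genes. They are shown because some of the genes moved together on 1 array, described below. Each line gives 25 bases before and 15 bases from the RefSeq start, 5′ to 3′ on the strand of the gene, with the longest run of pyrimidines in capitals. The first 5 genes were low on the second SMA LMC array, and the last 3 were near the level of the other arrays of their group.
Rpl27, chr11:101442220-101442259, plus strand: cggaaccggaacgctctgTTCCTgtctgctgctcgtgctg
Rps13, chr7:116334176-116334215, minus strand: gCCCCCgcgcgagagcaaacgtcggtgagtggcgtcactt
Rps7, chr12:28635939-28635978, minus strand: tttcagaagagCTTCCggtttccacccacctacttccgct
Rps16, chr7:28350664-28350703, plus strand: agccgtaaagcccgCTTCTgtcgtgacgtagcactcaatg
Rpl35, chr2:39005117-39005156, minus strand: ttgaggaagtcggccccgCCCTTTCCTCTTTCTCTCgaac
Rpl27a, chr7:109519170-109519209, plus strand: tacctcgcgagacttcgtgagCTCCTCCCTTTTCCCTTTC
Rps25, chr9:44407689-44407728, plus strand: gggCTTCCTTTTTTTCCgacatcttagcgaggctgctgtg
Rpl41, chr10:128549154-128549193, minus strand: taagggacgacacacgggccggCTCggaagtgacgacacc

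A run of at least 8 bases C or T within 25 bases of the start, on the strand of the gene, was present in 24 of the 55 promoters of these 46 genes, or 43.6%, and in 19.7% of all 32851 promoters in the table. The letters CCGGAAG, searched on both strands of the 300 bases around the start, were present in 38.2% of the promoters of these genes and in 8.86% of all; the reverse strand of these letters may overlap a run. TATAAA was present in 9.09 and 13.6%, and AAGATGGC in 5.45 and 2.75%. Of the 17 genes over 2 log2 units low on the second SMA LMC array, 15 had a promoter in the table, and 5 of their 17 promoters (29.4%) held a run. Of the other genes above background on at least 20 arrays, 28 had a promoter in the table, and 18 of 34 promoters (52.9%) held one. These matches describe the letters and were not tested.

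**Figure D1:**
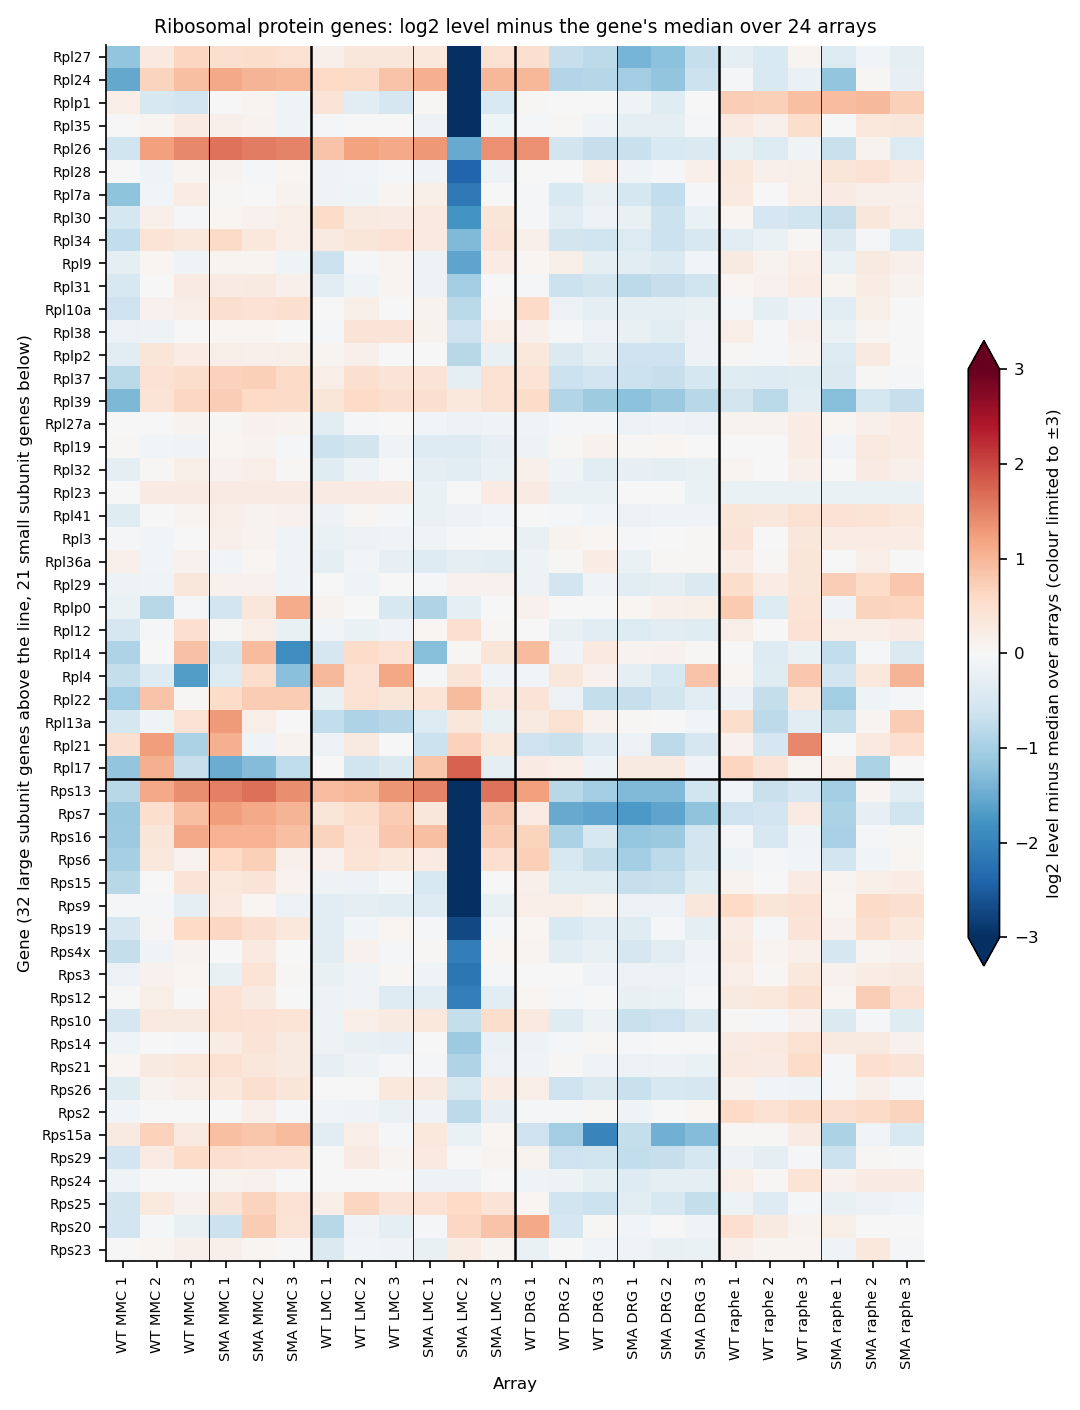
The log2 level of the 53 ribosomal protein genes above background on at least 20 arrays (rows) is shown on each of the 24 arrays (columns) after subtracting the gene's median over all arrays, with red above and blue below that median. The second SMA LMC array has a dark blue block at the top of each subunit's rows, which are ordered by the deviation of that array, while other rows of the same column are near white.

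On the second SMA LMC array, ribosomal protein mRNAs were low, and unevenly so. This array also had the lowest share of probes above background, 33.7%, and its mean correlation with the other arrays of its group was 0.819. The genes above background on the other 23 arrays were compared with the mean of the other 2 SMA LMC arrays. Of 50 such ribosomal protein genes, 21 (42%) lay over 1 log2 unit below that mean and 17 (34%) over 2 units below it. Of all 6110 such genes, 18.1% lay over 1 unit below and 7.45% over 2 units below. The 17 low genes were 8 of the large and 9 of the small subunit. The median deviation was -0.68 over 29 large subunit genes and -1.13 over 21 small subunit genes.

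Rpl27, which encodes a large subunit protein mutated in rare cases of Diamond-Blackfan anaemia, lay at 11.34, 4.69 and 11.47 on the 3 SMA LMC arrays and between 11.18 and 11.36 in WT LMC. Its second SMA value was not above background, so it was at least 47-fold below the mean of the other 2 arrays. Rps13, of the small subunit, gave 11.31, 5.09 and 11.45 in SMA LMC and at least a 46.2-fold gap. The same array was below background for Rpl24 (at least 32.8-fold lower), Rps16 (19.6-fold), Rps7 (17.4-fold) and Rps6 (11.1-fold). Each of these bounds was taken against the lowest log2 value of a probe above background on that array, 5.85. Rps6 is the substrate of S6 kinase, and Rps7 is another gene mutated in Diamond-Blackfan anaemia. In WT LMC all 6 genes were above background on the 3 arrays.

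A further 11 genes were still above background there but over 2 units low. Rps15, which encodes a protein near the decoding centre, gave 10.93, 6.60 and 11.41 on the 3 SMA LMC arrays. Rplp1, a protein of the stalk that recruits elongation factors, gave 11.62, 7.13 and 11.12. Rpl35, which lies beside the exit tunnel, gave 11.76, 8.50 and 11.78. On each of these genes only the second array was low. Rps19, the first gene linked to Diamond-Blackfan anaemia, stood at 9.05, a deviation of -2.66, and Rps4x, the X-linked small subunit gene, at 9.23, a deviation of -2.12. The others were Rpl26, Rps9, Rpl28, Rpl7a, Rpl30 and Rps3, whose deviations ran from -2.86 to -2.09. The nearest gene on the other side of the limit of 2 units was Rps12, at -1.73.

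Other ribosomal protein genes on the same array lay within 0.08 of a unit of the rest of their group. Rpl41, which encodes a very short basic peptide, gave 12.80, 12.85 and 12.92. Rpl3, whose protein reaches towards the peptidyl transferase centre, gave 12.83, 12.91 and 12.94, and Rpl27a differed by -0.08, Rps24 by -0.08, Rpl19 by -0.07 and Rpl32 by -0.06. The other stalk proteins differed from Rplp1, with deviations of 0.16 for Rplp0 and -0.73 for Rplp2. The 5 genes farthest above were Rpl3l (2.56), Rpl17 (1.5), Rpl21 (0.86), Rpl13a (0.65) and Rpl22 (0.62). Rpl3l gave 6.81, 8.55 and 5.16 in SMA LMC and was not above background on the third of these.

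Probes of the same gene moved together on this array for some genes and not for others. The probes of Rpl21 deviated by 0.86, 1.11 and 0.74, those of Rpl4 by 0.48 and 0.67, and those of Rpl30 by -2.12 and -1.35. For Rpl27a the probe used deviated by -0.08, and its other probes by -3.27, -0.21 and 0.98. For Rps2 the probe used deviated by -0.62 and the other probe by -3.97. Both Rps2 probes were above background on all 24 arrays. For Rps12 the deviations were -1.73 and -4.05, for Rps9 -2.81 and -4.60, for Rps3 -2.09 and -0.73, and for Rpl38 -0.77 and -2.75. The other probe of Rps13 deviated by 1.98, although it was above background on only 7 arrays. A value of this array is thus that of a probe, and the count of 17 low genes depends on the probe chosen. In the authors' deposited table of normalized values the 17 genes were low as well, with deviations from -3.35 for Rpl27 to -1.31 for Rpl30 on its log2 scale. That table keeps the rank order of the same signals on each array, so it is no separate support.

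2 WT arrays also stood apart from their groups to a lesser degree, in part in the same genes. Over the same 50 genes, 13 (26%) lay over 1 unit below the other 2 arrays on the first WT MMC array, against 11.4% of the same 6110 genes of any kind. On the first WT DRG array 10 of 50 (20%) lay over 1 unit above, against 7.59%. Both counts include the 6 genes below background on the second SMA LMC array. Over genes above background on every array other than the one examined, which leaves those 6 out, the counts were 7 of 44 (15.9%, against 11.8% of all genes) and 4 of 44 (9.09%, against 7.39%). The 17 genes low on the second SMA LMC array had a median deviation of -1.02 on the first WT MMC array, with 14 below 0, and of 0.44 on the first WT DRG array, with 16 above 0. The other 33 had medians of -0.27 and 0.25, with 28 below 0 on the first WT MMC array and 23 above 0 on the first WT DRG array. On the first WT MMC array the sign thus did not set the 17 genes apart from the other 33. Rplp1, Rps9 and Rpl28 were exceptions that lay 0.71, 0.12 and 0.002 above 0 on the first WT MMC array. Conversely, Rpl39 and Rpl22 deviated by -1.88 and -1.49 on the first WT MMC array but by -0.14 and 0.62 on the second SMA LMC array. Across 50 genes the deviations of the second SMA LMC and first WT MMC arrays had a Pearson correlation of 0.53 (Spearman 0.39), and those of the first WT MMC and first WT DRG arrays one of -0.87 (Spearman -0.85). These correlations are descriptions across genes, which share arrays and are not independent.

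**Figure D2:**
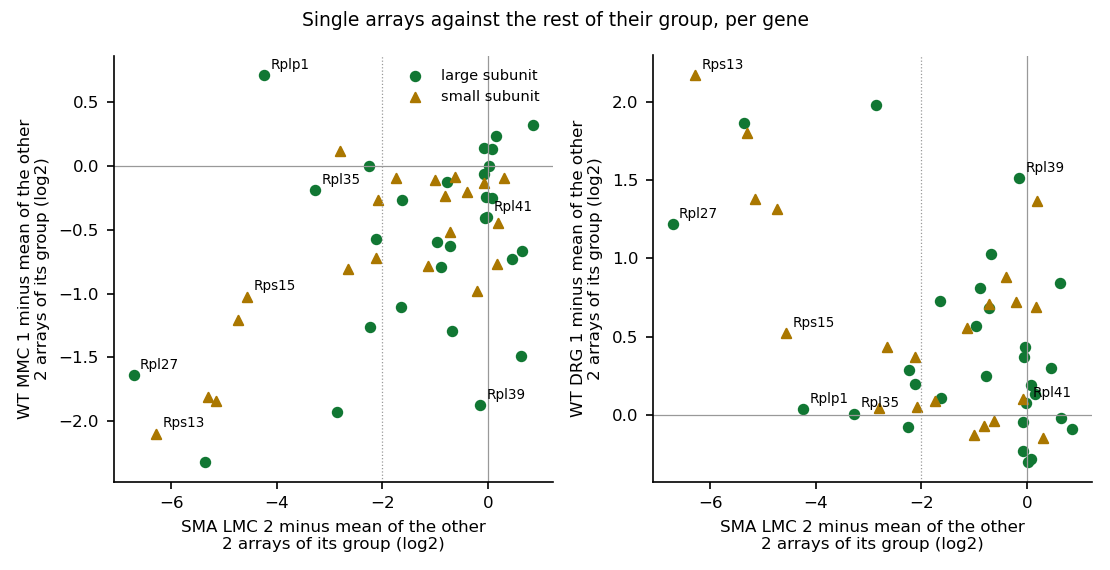
Each point is 1 of 50 ribosomal protein genes; the horizontal axes give its log2 level on the second SMA LMC array minus the mean of the other 2 arrays of the group, and the vertical axes the same for the first WT MMC array (left) and the first WT DRG array (right). Genes left of the dotted line at -2, such as Rpl27 and Rps13, lie mostly below 0 in the left panel and above 0 in the right panel, while Rplp1 and Rpl35 lie near 0 in the right panel.

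Markers of other cells also differed on these arrays. The summed signal of 3 measured red blood cell markers was 8.87 on the second SMA LMC array and 1085 and 497 on the other 2. That of the motor neuron markers was 4017 there and 6323 and 6729 on the other 2, with 5 of 8 above background on all 3 arrays and Lhx3 and Lhx4 on none. On the first WT MMC array it was 3551, against 5071 and 5890, and the oligodendrocyte markers summed to 5949, against 12665 and 10566. On the first WT DRG array 5 measured sensory neuron markers summed to 10141, against 6341 and 5977. The part of these differences in the ribosomal protein values was not tested.

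The spread of the genes within groups depended on these 3 arrays. The residual SD within groups had a median of 0.34 over the 44 genes above background on all arrays, and of 0.41 over 5660 such genes of any kind. Without the 3 arrays it was 0.16 for the ribosomal protein genes and 0.34 for all genes. The 3 arrays were chosen because ribosomal protein genes stood apart on them, so a larger fall for these genes is partly fixed by that choice. Without the 3 arrays the residual SD was lowest for Rpl41 at 0.061 and Rps2 at 0.079. Among the 53 genes above background on at least 20 arrays it was highest for Rpl14 at 0.72, Rpl21 at 0.69 and Rpl4 at 0.66, of which Rpl14 and Rpl4 were above background on 22 arrays.

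The comparison of SMA with WT asks whether ribosomal protein mRNAs differ in the affected mice. None of them passed the test in any tissue. The second SMA LMC array decided the direction in LMC. The test was limma's moderated test with Benjamini-Hochberg adjustment over all genes tested, at an adjusted p of 0.05, and the count was 0 for every tissue. Of all genes tested, 1.51% passed in MMC and 0.0331% in LMC. The share was 0.0101% in DRG and 0.234% in raphe. The standard error of a difference had a median over the genes of 0.30 to 0.33 and ran from 0.075 for Rpl27a to 1.01 for Rps13. In genes such as Rps13 even differences well over 1 unit could therefore be missed. In LMC, Rps13 differed by -1.61 and Rpl27 by -2.13, and neither passed (limma adjusted p = 0.724 and 0.701).

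In LMC the SMA values were lower for 40 of the 53 genes tested, with a median difference of -0.27, against 0.028 for all genes. The medians were -0.27 over 32 large subunit and -0.25 over 21 small subunit genes. At an unadjusted p of 0.05, 12 genes (22.6%) were past it, against 6.99% of all genes. Without the second SMA LMC array the median was 0.049, 32 genes lay above 0 and 21 below, and 0 passed the test or an unadjusted p of 0.05. The shares of all genes were then 0.0315% and 2.99%. The medians became 0.006 for the large and 0.086 for the small subunit, with 16 of 21 small subunit genes above 0.

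The genes of smallest p that were lower in SMA LMC followed that array. Rpl35 had a difference of -1.22 ± 0.474 (SE, limma adjusted p = 0.701), and its WT LMC values were 11.86, 11.93 and 11.91. Rps12 differed by -0.68 and Rps15 by -1.64, both with a limma adjusted p of 0.701. Without the array the 3 differences were -0.13, -0.10 and -0.11. In the other direction, Rps20, of the small subunit, gave 7.79, 8.43 and 8.68 in SMA and 6.98, 7.72 and 7.56 in WT. All 3 SMA values of Rps20 lay above the WT values, but the difference of 0.88 did not pass (limma adjusted p = 0.701). Rpl17 differed by 1.11 and Rpl13a by 0.75, and neither passed. Without the second SMA LMC array Rps20 differed by 0.81, Rpl17 by 0.61 and Rpl13a by 0.53. Without the second SMA LMC array the smallest p belonged to Rpl23, at -0.22 (limma adjusted p = 1.00).

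In MMC the SMA values lay above the WT values for 48 of 51 genes, with a median difference of 0.31, against 0.057 for all genes. The median was 0.20 over 30 large subunit genes and 0.40 over 21 small subunit genes, of which all 21 lay above 0. An unadjusted p of 0.05 was passed by 4 genes, or 7.84%, against 15.1% of all genes. Groups did not overlap for 12 genes (23.5%), all with SMA above WT, against 14.6% of all genes. Leaving out the first WT MMC array reduced the median to 0.10, with 41 of 52 genes above 0.

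Rpl41 had the smallest p, with 13.22, 13.12 and 13.15 in SMA MMC and 12.65, 13.00 and 13.09 in WT MMC. Its groups did not overlap, and the difference was 0.25 ± 0.09 (SE, limma adjusted p = 0.175). Rps25, a small subunit protein needed by some viral RNAs to recruit ribosomes, gave 10.67, 10.94 and 10.70 in SMA and 9.72, 10.58 and 10.40 in WT. Its difference was 0.54 (limma adjusted p = 0.231). Rpl10a gave 11.42, 11.37 and 11.42 in SMA and 10.30, 11.06 and 11.12 in WT, a difference of 0.57 (limma adjusted p = 0.251). In these 3 genes the first WT MMC array was the lowest of the 6, and without it the differences were 0.12, 0.28 and 0.31. The genes of smallest p that were lower in SMA were Rpl36a (-0.10), Rpl14 (-0.47) and Rpl35 (-0.07), and none passed.

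In DRG 45 of 53 genes were lower in SMA, with a median of -0.17, against -0.028 for all genes. The medians were -0.17 over the large and -0.16 over the small subunit genes. An unadjusted p of 0.05 was passed by 0 genes, against 1.39% of all genes, and groups did not overlap for 5 genes (9.43%), against 8.61%. Rps10, mutated in Diamond-Blackfan anaemia, gave 8.68, 8.71 and 8.91 in SMA and 9.64, 8.97 and 9.20 in WT. The groups did not overlap and the difference was -0.50 ± 0.279 (SE, limma adjusted p = 1.00). Rpl39, whose protein lines the exit tunnel, differed by -0.59 and Rps24 by -0.14, while Rplp0 (0.10), Rpl19 (0.030) and Rps14 (0.034) lay on the other side. The first WT DRG value of Rpl39 was 12.46 and the other 2 were 11.04 and 10.85. Without that array Rpl39 differed by -0.087, and without the last WT DRG array by -0.89. Without the first WT array the median in DRG was -0.087, with 42 of 53 genes below 0.

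In the raphe the genes lay on both sides, 22 above and 31 below, with a median of -0.013, against -0.022 for all genes. The medians were -0.001 for the large and -0.053 for the small subunit. An unadjusted p of 0.05 was passed by 2 genes, against 6.89% of all genes, and groups did not overlap for 3 (5.56%), against 14.5%. These 3 were Rps4l, Rps15a and Rpl29. Rps4l gave 5.81, 5.38 and 5.29 in SMA and 4.77, 4.53 and 4.90 in WT. It was above background on the 3 SMA raphe arrays and on 0 of 3 WT raphe arrays, so that it was tested only through the group where it was high. Against the lowest level above background on each WT array it was at least 1.34-fold higher in SMA, from measured means of 5.49 and 4.73, and it did not pass (limma adjusted p = 0.421). Rps15a gave 9.05, 9.91 and 9.55 in SMA and 10.03, 10.04 and 10.24 in WT, and differed by -0.60 (limma adjusted p = 0.701). Rpl29 differed by 0.33, Rpl37 by 0.22, Rpl36a by -0.14 and Rpl17 by -0.63, and none of them passed.

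**Figure D3:**
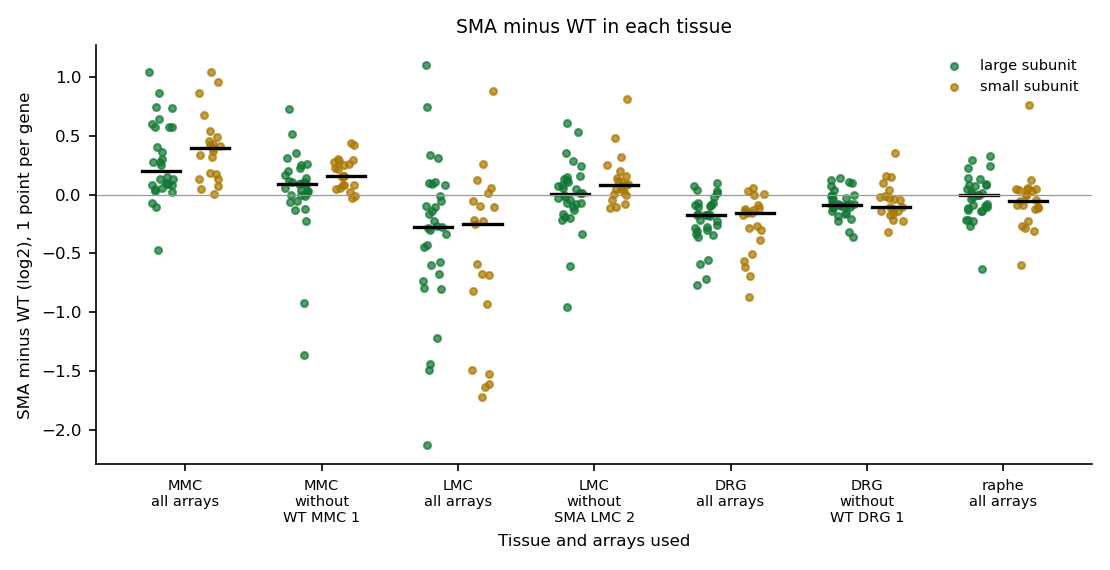
Each point is the log2 difference of SMA minus WT for 1 ribosomal protein gene, by tissue, with large subunit genes in green, small subunit genes in ochre and black bars at the medians; the second column of MMC, LMC and DRG leaves out 1 array. In LMC the medians of -0.27 and -0.25 move to 0.006 and 0.086 without the second SMA array, and no gene passed the test in any column.

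The mean difference over the 4 tissues had a median of -0.065 over 54 genes, against -0.003 for all genes. It passed for 0 ribosomal protein genes, of which 0 reached an unadjusted p of 0.05, against 0.0536 and 6.24% of all genes. The smallest adjusted p was 0.809, for Rpl36a. The genes of smallest p with a positive mean difference were Rpl13a, Rps25 and Rpl19, and with a negative one Rpl36a, Rpl38 and Rplp2.

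The effect of genotype was also compared between the columns. The difference of SMA minus WT in LMC less that in MMC had a median of -0.51 over 53 genes, with 45 below 0, against -0.030 for all genes. None passed (0 of 53 in limma, against 0.0414% of all genes). An unadjusted p of 0.05 was reached by 10 of 53, a larger share than the 9.66% of all genes. The gene of smallest p in the positive direction was Rpl17, at 2.02 (limma adjusted p = 0.393), followed by Rps23 and Rpl12. Rpl17 was above background on 2 of 3 WT MMC and 1 of 3 SMA MMC arrays, and its value ran from 1.35 to 2.56 with 1 array left out. Rpl41 differed by -0.36, Rpl10a by -0.85 and Rps14 by -0.56. Without the second SMA LMC, first WT MMC and first WT DRG arrays, the median was -0.063. In that setting 3 of 53 genes (5.66%) reached an unadjusted p of 0.05, against 9.54% of all genes. An F test of any difference of the genotype effect among the 4 tissues passed for 0 of 54 genes, against 0.0626% of all genes, and 3 (Rps4l, Rpl41 and Rpl17) reached an unadjusted p of 0.05, against 6.96%. For 4 of 54 genes the SMA arrays lay all above WT in 1 tissue and all below in another, against 2.41% of all genes.

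The array medians show the same features as single genes. For WT MMC the array medians averaged 11.1 ± 0.461 (SD, n = 3) and for SMA MMC 11.5 ± 0.0736. The averages of the other groups ran from 10.7 in SMA DRG and SMA LMC to 11.2 in WT LMC and WT raphe.

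**Figure D4:**
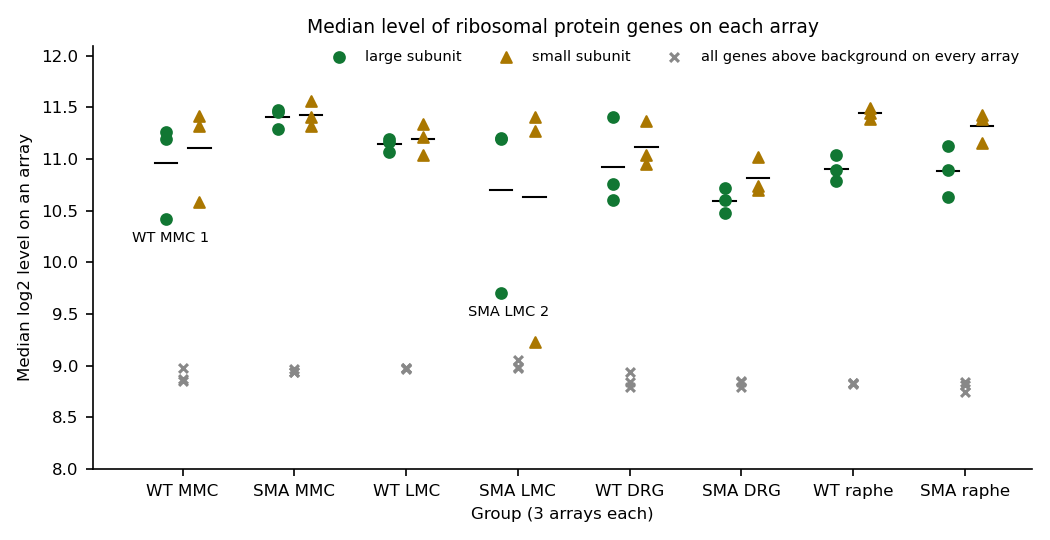
Each green circle is the median log2 level of the large subunit genes and each ochre triangle that of the small subunit genes on 1 array, for the 53 genes above background on at least 20 arrays, by group, with black bars at the mean of 3 arrays; grey crosses are the median of all genes above background on every array. The second SMA LMC array lies at 9.70 and 9.23, below every other array, while its grey cross at 9.05 is the highest.

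The WT tissues were compared next, as a description of where the mRNAs are higher. After quantile normalization, Rps2 and Rpl41 were higher in the raphe than in the other 3 tissues, and Rps15a was lower in DRG than in the other 3. Rpl3 was higher in the raphe than in both motor columns, by 0.30 and 0.39, and Rps24 was higher there than in MMC and DRG, by 0.26 and 0.39. Before normalization the Rps24 signals did not show this. They were 6857, 6114 and 7387 in WT raphe, 5425, 7885 and 8288 in WT MMC, and 8976, 6238 and 5813 in WT DRG. The other Rps24 probes were lower in WT raphe than in WT MMC, at 7.27, 5.36 and 4.97 against 8.09, 6.18 and 5.43. These were above background on 23, 18 and 13 arrays. In the SMA arrays Rps24 was 0.13 higher in the raphe than in MMC, which did not pass (limma adjusted p = 0.292), while its difference from DRG passed. An F test over the 4 WT tissues passed for 13 of 53 genes (24.5%), against 39.9% of all genes. These were 8 of the large and 5 of the small subunit. Since each tissue had its own chip, these differences may be of tissue or of chip.

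The 3 WT arrays of MMC gave Rps15a levels of 10.27, 10.69 and 10.27, those of LMC 9.66, 10.20 and 9.97, those of DRG 9.38, 8.96 and 8.03, and those of the raphe 10.03, 10.04 and 10.24. All DRG values lay below all others. Its level in DRG was 1.62 lower than in MMC (limma adjusted p = 0.000182), 1.16 lower than in LMC (0.00432) and 1.32 lower than in the raphe (0.00149). In the SMA arrays the differences were -2.05, -1.22 and -0.66, and the last did not pass (limma adjusted p = 0.108).

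Rps2, which lies at the entry of the mRNA channel, was between 12.44 and 12.57 on the WT raphe arrays and between 11.80 and 12.01 on the other 9 WT arrays. It was 0.55 higher than in MMC, 0.66 higher than in LMC and 0.55 higher than in DRG (limma adjusted p = 0.00421, 0.000477 and 0.00277). In the SMA arrays Rps2 was again highest in the raphe, by 0.55, 0.96 and 0.60, and all 3 differences passed. With the mean of both its probes, the differences of Rps2 in WT were 0.77, 0.74 and 0.81 and did not pass (limma adjusted p = 0.153, 0.138 and 0.135). Rpl41 lay between 13.36 and 13.46 in the WT raphe and between 12.65 and 13.09 elsewhere in WT. It was 0.49, 0.43 and 0.43 higher than in MMC, LMC and DRG, with limma adjusted p of 0.000624, 0.00103 and 0.00101. Rpl41 in SMA was 0.24 higher in the raphe than in MMC, which did not pass (limma adjusted p = 0.05004), and in WT without quantile normalization by 0.23, which did not pass either (0.215). In SMA it was 0.54 and 0.53 higher in the raphe than in LMC and DRG, which passed. The difference of Rpl3 between raphe and MMC did not pass in 11 of 20 alternatives, among them the deposited values (0.24, limma adjusted p = 0.0876) and no quantile normalization (0.061, 0.794). Before normalization, the Rpl41 signals of the WT raphe were 8259, 7760 and 8423, all below the 8461, 11400 and 10521 of WT LMC. Those of Rpl3 were 7811, 6243 and 7716, all below the 7871, 8794 and 9437 of WT LMC. For both genes the direction against LMC thus came with the normalization.

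Rpl23, whose human protein can bind MDM2, was the exception in reliability. Its probe ranked between 1 and 3 among all 45281 probes on every array, so quantile normalization left it only 3 distinct values, 15.06, 15.25 and 15.49. No other ribosomal protein gene had fewer than 17 distinct values. By these values Rpl23 was 0.35 lower in the raphe than in MMC (limma adjusted p = 0.0141) and 0.29 lower in DRG than in LMC (0.0323). In the authors' deposited values the second of these was 0.31 higher in DRG (limma adjusted p = 0.00329), so its direction depends on the normalization. Its deposited signal was between 28208 and 31185 on the 6 raphe arrays and between 31192 and 48286 on the others.

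**Figure D5:**
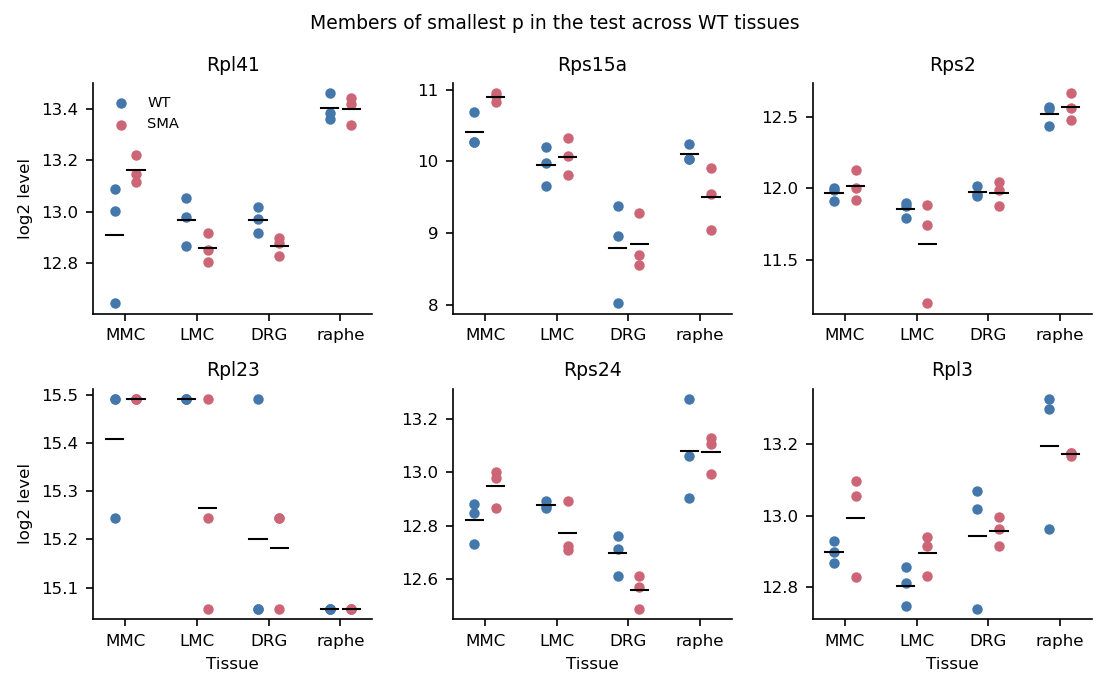
The log2 level of the 6 genes of smallest p across WT tissues is plotted by tissue, 1 point per array, WT in blue and SMA in red, with black bars at the means of 3 arrays; each panel has its own vertical axis, which does not start at 0. Rps2 and Rpl41 are highest in the raphe in both genotypes, Rps15a is lowest in DRG, and Rpl23 takes only 3 values.

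By pairs of WT tissues, the number of genes that passed was 1 of 53 for LMC against MMC (3.61% of all genes passed), 1 for DRG against MMC (20.2%), 5 for raphe against MMC (19.5%), 5 for DRG against LMC (23.5%), 12 for raphe against LMC (30.8%) and 6 for DRG against raphe (20.1%). Every one of these pairs of gene and comparison had the same sign in the SMA arrays. The number that also passed there was 0 of 1, 1 of 1, 2 of 5, 3 of 5, 10 of 12 and 5 of 6, in that order.

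Rpl4, whose protein forms part of the exit tunnel wall, was the 1 gene that differed between the columns in WT. It gave 7.58, 7.05 and 7.78 in LMC and 5.90, 6.23 and 4.94 in MMC, 1.78 higher in LMC (limma adjusted p = 0.0449). The probe was above background on 22 arrays, and not on the last WT and the last SMA MMC array. The call was lost in 12 of 19 alternatives. In the SMA arrays Rpl4 differed by 0.43 between the columns (limma adjusted p = 0.605). Raphe against LMC held the most passing genes. Rpl39 was 1.03 lower in the raphe, at 11.36, 11.10 and 11.59 against 12.28, 12.48 and 12.39 in LMC (limma adjusted p = 0.0396). Rps25 was 0.62 and Rpl37 0.73 lower, but Rpl37 did not pass in 12 of 20 alternatives and differed by -0.039 with the mean of its probes (limma adjusted p = 0.911). The Rpl37 probes other than the one used were above background on only 5 arrays and 1 array. Rpl39 did not pass in 9 of 20 and Rps25 in 6 of 20. In the same comparison Rps2, Rps14 and Rps21 were higher by 0.66, 0.54 and 0.52. Rps14 and Rps21 did not pass in 4 of 20 alternatives each, and Rps2 in 1 of 20. Before normalization the signals of each of these genes overlapped between WT raphe and WT LMC. Those of Rps14 were 4445, 4344 and 4868 in the raphe and 4483, 4716 and 4677 in LMC. Those of Rps21 were 4162, 3807 and 4670 against 3685, 4434 and 4758. Rpl27a also passed, at 0.26 higher, but its signals were 9452, 9313 and 10084, all below the 10772, 14644 and 15244 of LMC. DRG against LMC gave higher Rpl13a (1.13) and Rpl19 (0.44), which did not pass in 8 and 7 of 20 alternatives, and lower Rps25 (-0.81). In DRG against the raphe all 6 passing genes were lower in DRG, among them Rpl29 at -0.64.

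The count of tissue differences depends on the arrays that stand apart. Without the second SMA LMC, first WT MMC and first WT DRG arrays, the F test over WT tissues passed for 36 of 53 genes (67.9%), against 48.7% of all genes. 12 of the 13 genes above were among them, and 24 passed only then; Rpl4 passed only with all arrays. In the SMA arrays alone, 32 of 54 passed an F test over tissues, against 51.7% of all genes, and 11 of these 32 also passed in WT. The genes of smallest p without the 3 arrays, named after their values were seen, were Rpl26, Rpl37, Rpl39 and Rps13. Rpl26 gave 10.40 and 10.60 on the 2 remaining WT MMC arrays, 10.01, 10.37 and 10.29 in WT LMC, 8.62 and 8.48 on the 2 remaining WT DRG arrays, and 8.95, 8.76 and 9.06 in the WT raphe. On the arrays kept, the motor column values of Rpl26 were all above those of DRG and raphe. The WT arrays left out went the other way, with 8.57 on the first MMC and 10.53 on the first DRG array. Rps13 showed the same order, with 10.74 to 11.20 on the motor column arrays kept, 8.77 and 9.0 in DRG and 9.15 to 9.73 in the raphe. Its values on the first WT MMC and first WT DRG arrays were 8.99 and 11.06. With all arrays neither gene passed the F test (limma adjusted p = 0.220 and 0.519). Both are among the 17 genes that were low on the second SMA LMC array. In this setting 21 of 53 genes (39.6%) were lower in DRG than in MMC and 0 were higher. Of all genes 14.5% were lower, and 27.4% passed in either direction. The first WT MMC array was left out because many ribosomal protein genes were low on it, and the first WT DRG array because many were high. That choice itself moves their differences this way, so the excess over all genes is no separate support for it. With all arrays 1 of 53 genes passed for DRG against MMC.

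Other genes of the translation machinery were described from lists by their counts and medians. Of the Diamond-Blackfan anaemia genes, 9 of 15 were measured, all of them ribosomal protein genes of the set above. Their median difference was 0.42 in MMC and -0.27 in LMC, where it was 0.086 without the second SMA array. DRG had a median of -0.28 and the raphe of -0.035, and 0 genes passed. Of 7 elongation factor genes 0 passed, with medians of -0.023, -0.10, -0.009 and 0.001 in the 4 tissues. Among initiation factors 0 of 20 to 23 passed, with medians from -0.074 to 0.16. Ribosomal proteins outside the symbol rule (4 tested) had medians of 0.31 in MMC and -0.18 in LMC, where it was 0.004 over 5 genes without the second SMA array, and 0 passed.

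Of 40 genes for ribosome assembly and RNA polymerase I tested in MMC, 3 rose and 1 fell in SMA (4 of 40, against 1.51% of all genes), and 0 of 45 to 48 passed in the other tissues. Bop1 and Brix1 encode assembly factors of the large subunit. Bop1 gave 8.01, 7.55 and 8.65 in SMA and 5.34, 6.10 and 7.17 in WT, 1.87 higher (limma adjusted p = 0.037). Brix1 was 1.59 and Rrn3, an initiation factor of RNA polymerase I, 1.15 higher, both with a limma adjusted p of 0.0484. Polr1a, which encodes the largest subunit of that polymerase, fell by 2.57 on the log2 scale (limma adjusted p = 0.000926), from 7.17, 8.33 and 7.52 in WT to 5.02, 5.06 and 5.23 in SMA. The other Polr1a probes did not show this: those above background on 23, 21 and 12 arrays differed by -0.35, -0.17 and 0.66. The other probe of Bop1 differed by 0.58, those of Brix1 by 1.34 and 0.87, and that of Rrn3, above background on 6 arrays, by -0.01. Without the first WT MMC array only Polr1a of the 4 passed. Of 72 mitochondrial ribosomal protein genes in MMC, Mrps15 fell by 1.52 (limma adjusted p = 0.0295), and the list's median was 0.18; without the first WT MMC array its adjusted p was 0.0846, and its other probe differed by -0.18. In the other tissues 0 of 72 to 75 passed, and the median in LMC was -0.11, or -0.006 without the second SMA array. Of 10 S6 kinase and mTOR genes in MMC and 11, 12 and 10 in the other tissues 0 passed, as did 0 of 14 or 15 other genes with a terminal oligopyrimidine tract.

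On the second SMA LMC array the counts of these lists were as follows, with no test of a difference from the 42% of the ribosomal protein genes. Of the elongation factors 1 of 7 (Eef2) lay over 1 unit low, and of the initiation factors 1 of 19 (Eif4b). The count was 12 of 65 (18.5%) for the mitochondrial ribosomal proteins, 7 of 28 for the assembly genes and 0 of 10 for the S6 kinase and mTOR genes. Among the other genes with a terminal oligopyrimidine tract it was 2 of 14. These were again Eef2 and Eif4b, since the lists overlap. Of the Diamond-Blackfan anaemia genes 5 of 9 did, and of the ribosomal proteins outside the symbol rule 2 of 4. The share over all genes was the 18.1% given above.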

How the data were processed

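RNA of 24 samples was measured on 1-colour Illumina bead arrays. Per the file headers, a deposited table pairs a signal intensity with a detection p-value per probe and array. Negative values made up 23.9 to 38.5% of an array's signals, as after background subtraction. GenomeStudio stands in the submitters' processing notes without a version. A second table that the authors deposited holds normalized log2 values, by a method the sources used here do not give; its rank correlation with the signals was 1 on each array and its column medians lay between 7.54 and 7.57, so its scale and direction are known and its centring is not. It served as an alternative. Depth has no equivalent on arrays, and 3 arrays per group limit the precision.

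Normalization used limma 3.58.1 in R 4.3.3 (normexp with detection p-values, offset 16, quantile normalization, log2). Gene symbols are those of the platform annotation, which names 34885 of 45281 probes by 1 symbol, 18 by several and 10378 by none; the last 2 kinds were not used. Genes were tested where above background on all 3 arrays of at least 1 group compared. The linear model had 8 group means over the 24 arrays (16 residual degrees of freedom), with a mean-variance trend in limma's moderated tests, two-sided, and Benjamini-Hochberg adjustment over all genes tested. The script was tested on simulated data. Groups and replicate numbers come from the sample titles. The numbers were not taken to pair the samples. Deviations of same-numbered SMA and WT arrays of a tissue had correlations between -0.11 and 0.38, which cannot exclude pairing. Same-numbered arrays of different tissues were not compared in this way.

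The members and lists were chosen with earlier results of these data known. The text names, per comparison of genotypes, the 3 genes of smallest p in each direction; for WT tissues the 6 of smallest p and the 3 largest passing differences each way per pair; the 5 farthest each way on the second SMA LMC array; and genes fixed for their roles, for example the stalk proteins, Rpl3, Rps6, Rps19 and Rps4x. Others were named after their values were seen. Promoters come from RefSeq. The choice of the arrays that stand apart and the limits of 1 and 2 log2 units were made after seeing the data. Alternatives covered normalization, background, filter, probe, variance model, arrays and a replicate block.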

Additional observations from a re-analysis of the deposited data

Results flagged for a closer look

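In 4 genes the 3 SMA arrays lay all above the WT arrays in 1 tissue and all below them in another. Rpl41 differed by 0.25 in MMC and by -0.10 in DRG. Rps10 differed by 0.42 in MMC and by -0.50 in DRG. Rps15a differed by 0.49 in MMC and by -0.60 in the raphe. Rpl13a differed by 0.75 in LMC and by -0.31 in DRG. None of these differences passed the test. The difference between the 2 tissues of a gene was not tested on its own, and limma's F test over the 4 tissues gave adjusted p of 0.681, 0.815, 0.761 and 0.827, in that order.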

How the results depend on the processing

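In each SMA against WT comparison, the count of genes that passed was 0 under every alternative run, including the replicate block (0 in each). The median in LMC ran from -0.387 to 0.049 when 1 array was left out, in MMC from 0.101 to 0.394, in DRG from -0.259 to -0.087 and in the raphe from -0.116 to 0.069. Small differences reversed for Rps24 in DRG (0.024 without quantile normalization, 0.18 with the mean of probes), Rplp0 in DRG (-0.28) and Rpl37 in the raphe (-0.24) with the mean of probes, Rpl38 in the mean over tissues (0.00495) without quantile normalization, Rpl19 in DRG (-0.000619) with array weights, and, without the 3 arrays that stand apart, Rpl19 (-0.0484) and Rps14 (-0.0103) in DRG. With 1 array left out, Rpl19 in DRG ran from -0.0484 (without the first WT array) to 0.0975, Rps14 in DRG from -0.0103 (without the first WT array) to 0.0788, Rpl14 in MMC from -1.19 to 0.22 (without the last SMA array) and Rpl35 in MMC from -0.13 to 0.0139 (without the last SMA array; 0.00331 without the last WT array). Rpl23 in DRG against LMC was 0.31 in the deposited values. None of these but the last passed. For Rpl37, the probes other than the one used were above background on only 5 arrays and 1 array.

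The counts over WT tissues moved more. The F test passed for 8 genes with no filter, 7 with the mean of probes, 4 with no variance trend, 34 with array weights, 32 in SMA arrays and 36 without the 3 arrays. LMC against MMC gave 0 with no filter, with genes above background on all 24 arrays, with the mean of probes, with only the arrays compared and with the replicate block, 2 in the deposited values, without quantile normalization, with array weights and without the 3 arrays, and 7 in SMA arrays, whose median was -0.52. DRG against MMC gave 7 without quantile normalization, 14 with array weights, 20 in SMA arrays and 21 without the 3 arrays. Raphe against MMC gave 2 in the deposited values, without quantile normalization, with the mean of probes and with no trend, 3 with no filter, 9 with array weights, 11 in SMA arrays and 17 without the 3 arrays. DRG against LMC gave 8 without quantile normalization, 3 with no filter or no trend, 27 with array weights, 14 in SMA arrays and 20 without the 3 arrays. Raphe against LMC gave 3 with no trend, 25 with array weights, 28 with only the arrays compared, 23 in SMA arrays and 28 without the 3 arrays, and a median of 0.067 with the mean of probes. DRG against raphe gave 3 with the mean of probes and with no trend, 20 with array weights, 12 with only the arrays compared, 10 in SMA arrays and 16 without the 3 arrays. With 1 array left out, the F test gave 7 (without WT LMC 1, WT raphe 1 or WT raphe 3) to 15 (without WT MMC 1), and 8 without WT LMC 3 or WT DRG 2. LMC against MMC gave 0 without WT MMC 1, WT MMC 3, WT LMC 1 or WT LMC 2, and otherwise 1. DRG against MMC gave 6 without WT MMC 1, 3 without WT DRG 1 and otherwise 1. Raphe against MMC gave 2 without WT MMC 2 or WT MMC 3, 3 without WT raphe 1 or WT raphe 3, and at most 6. DRG against LMC gave 0 without WT DRG 3, 10 without WT DRG 1, 2 without WT LMC 1, WT LMC 2 or WT DRG 2, and 3 without WT LMC 3. Raphe against LMC gave 6 without WT raphe 3, 7 without WT LMC 1 or WT LMC 2, and at most 10, and DRG against raphe gave 4 to 6. Fewer arrays were used in each of these. The cause of the other changes was not tested.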
